A study of Sus scrofa with 23 samples.

Results

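Porcine in vivo blastocysts of the Duroc breed (IV-D) had been cut with a hand-held knife into a part that held the inner cell mass (ICM) together with trophectoderm (TE), called IT, and a part that held TE alone. The comparison described here is that of these parts, chosen by their labels and not by any value. It rests on 2 of the 23 libraries of the series, 1 for IT and 1 for TE, and covers all 8603 genes of the expression table, of which 7093 reached an FPKM of at least 1 in IT or in TE and were tested against a fold limit. FPKM is the number of fragments per kilobase of gene, scaled to library depth, so levels of different genes can be set side by side.

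The study followed oocytes and pre-implantation embryos of pigs through cleavage and compared in vivo fertilized embryos with clones of Laiwu (NT-LW) and Duroc (NT-D) donor cells. The IV-D embryos were half-siblings with 1 Duroc boar as father and were flushed from the uteri of Duroc sows after artificial insemination. The clones were made by nuclear transfer of ear fibroblasts of 1 Laiwu boar and 1 Duroc boar, the latter being that same father, into in vitro matured oocytes of hybrid sows, and were cultured in PZM3 medium. IV-D embryos of both sexes and of 1 stage from a sow were mixed to form a sample, and several cloned embryos, all male, were mixed likewise. The sources used here do not say whether the IT and TE libraries came from the same blastocysts. The IV-D morula and the IT and TE parts of NT-D and NT-LW blastocysts (1 library each) are used below for comparison.

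The ICM and the TE are the first lineages of the mammalian embryo to separate. The ICM gives rise to the epiblast, from which the body forms, and to the hypoblast, which lines the yolk sac. The TE is a polarized epithelium that pumps fluid into the blastocyst cavity, attaches to the uterus and forms the fetal part of the placenta, and in pigs it elongates before implantation and signals to the mother through estrogens and cytokines.

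Because IT held TE cells as well, a gene used by both lineages was measured in both parts, and a difference may understate that between ICM and TE cells. In these bulk parts, fewer cells of a type and less RNA per cell cannot be told apart. With 1 library a side there is no replicate spread, so no test of IT against TE in IV-D covers the variation between embryos, and the intervals given below cover the counting of fragments alone. Depth was 19399318 fragments for IT and 14952784 for TE, and 3 fragments on a gene of 1 kb amounted to an FPKM of 0.155 and 0.201. Genes encoded by the mitochondrial genome took 25.3% of the summed FPKM of IT and 31.2% of that of TE. The TE library was closer to the 4 cloned libraries of both parts (Pearson r of log10 of FPKM plus 1 across all genes of the table, 0.952 to 0.976) than to IT of its own group (r = 0.914). The IT library was closest to the IV-D morula (r = 0.956), and its r with the cloned libraries was 0.932 and 0.934 for IT and 0.915 for both TE libraries. Genes are not independent replicates, and the part of embryo origin and culture in the IT and TE difference was not tested.

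More genes were higher in IT than in TE. A difference in log2(FPKM + 1) over 1 was called where the higher library had an FPKM of at least 1, which 1975 genes (27.8%) met. By this rule 1278 genes were higher in IT, 18% of those tested, and 697 were higher in TE, 9.83%. The median difference of all genes tested was 0.19 on the log2 scale in favour of IT. Scaling the libraries to each other by their median ratio lowered the difference of IT minus TE by 0.17 and a trimmed mean lowered it by 0.23, which turned the calls into 1056 against 892 and 989 against 951, so the surplus of genes on the IT side depended on the scaling. Differences of more than 3 on the log2 scale were found for 94 genes higher in IT and 52 higher in TE. The genes higher in IT had a median length of 2569 bases and those higher in TE of 2872 bases, against 3099 bases over all genes tested.

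**Figure D1:**
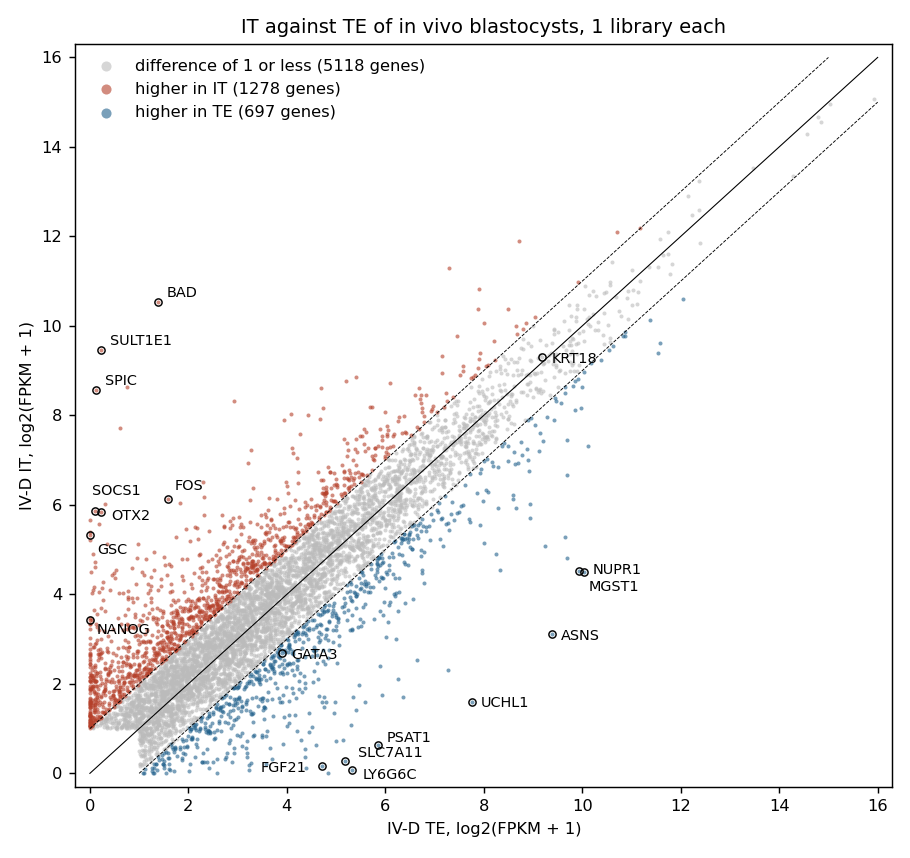
Level of each of the 7093 genes tested in the IV-D TE library (horizontal axis) and the IV-D IT library (vertical axis), both as log2 of FPKM plus 1. The solid line marks equal levels and the dashed lines a difference of 1. SPIC, SULT1E1 and BAD lie far above the lines, ASNS, NUPR1 and UCHL1 far below, and KRT18 lies on the line of equal levels.

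Most epiblast markers tested were higher in IT, while hypoblast and TE markers were called in both directions or not called. Of 32 epiblast markers listed, 16 were in the table and 13 were tested. Of these, 8 were higher in IT and 1 was higher in TE, with a median difference of 1.54 against 0.19 over all genes tested. The shares over all genes tested were 18% and 9.83%. Epiblast counts were 8 and 2 with median-ratio or trimmed-mean scaling, where KLF5 passed the limit toward TE. They were 10 and 1 after rescaling to the same sum, and 6 and 1 with a minimum FPKM of 5. The core factors POU5F1 and SOX2 and the TE factor CDX2 were not found by symbol among the genes of the table and were not analysed here. SPIC, an ETS-family transcription factor (chromosome 5, 82724322 to 82793527, Sscrofa11.1), had an FPKM of 376 in IT and 0.0841 in TE, where it had 2 fragments. Its ratio was 4470 (95% exact binomial interval 1237 to 36913). The gene was also high in the morula (310) and was higher in IT than in TE of both clone groups, with 46.5 and 2.06 in NT-D and 117 and 8.08 in NT-LW.

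NANOG, a homeobox factor of the pluripotency network, had an FPKM of 9.80 in IT and no fragment in TE, which made it at least 44.7-fold higher against a floor of 3 fragments. It was also at 0 fragments in TE of NT-D and NT-LW, with 5.00 and 3.76 in IT. NANOG has a position on more than 1 chromosome in the annotation, so fragments of its copies may have been shared. KLF4, one of the factors used to induce pluripotency, was at 23.6 in IT and 3.84 in TE, and was higher in IT than in TE of NT-D (9.87 and 2.11) and NT-LW (9.74 and 2.81). KLF17 was at 14.2 and 0.821 in IV-D, but at 2.45 in IT and 3.30 in TE of NT-LW. Other epiblast markers called toward IT included GDF3 (8.26 in IT and 1.22 in TE), LIN28A (29.6 and 9.52) and NR5A2 (2.14 and 0.117). DPPA5 went the other way, with 49.6 in IT and 168 in TE, and was higher still in the 4 cloned libraries (220 to 359).

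Of 28 hypoblast markers listed, 15 were in the table and 9 were tested. Of these, 4 were higher in IT and 1 was higher in TE, with a median difference of 0.79. With a minimum FPKM of 5 in the higher library these counts were 1 and 1. The shares over all genes tested were 18% and 9.83%, with a median of 0.19. PDGFRA, a receptor tyrosine kinase of hypoblast cells, was at 11.6 in IT and 0.0614 in TE (ratio 190), and all 3 IT libraries lay above all 3 TE libraries, where it did not exceed 0.121. FN1 (fibronectin, 2.45 and 0.0920), SERPINH1 (a collagen chaperone, 2.12 and 0.0309) and RSPO3 (a WNT agonist, 1.28 and 0.0414) were likewise higher in IT, at low levels. GATA6, the early hypoblast factor, differed by 0.79 on the log2 scale, with 37.7 in IT and 21.4 in TE, and was not called. APOA1, an apolipoprotein of yolk sac endoderm, was at 20.2 in IT and 20.9 in TE of IV-D, whereas in the clones it was at 144 and 0.574 in NT-D and at 458 and 22.8 in NT-LW. LAMC1, a laminin chain, was higher in TE (0.642 in IT and 8.15 in TE).

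Of 30 TE markers listed, 16 were in the table and were tested. Of these, 3 were higher in IT and 3 were higher in TE, with a median difference of 0.27. Over all genes tested, 18% were higher in IT and 9.83% higher in TE, with a median of 0.19. The simple epithelial keratins KRT8 (626 in IT, 549 in TE) and KRT18 (627 and 582) were near equal in both parts, as were GATA2 (7.0 and 6.91) and the AP-2 factor TFAP2C (7.86 and 5.58). The sign of the small differences of KRT8, KRT18 and GATA2 depended on the scaling. Markers called toward TE included the transcription factor GATA3 (5.42 and 14.0) and DSP, desmoplakin (7.55 and 17). Called toward IT were AQP3, a water and glycerol channel (45.6 and 6.35), CLDN4, a tight junction claudin (105 and 42.6), and FABP3, a fatty acid carrier (969 and 441). FABP3 differed by less than 1 with median-ratio or trimmed-mean scaling, which left 2 TE markers higher in IT. With either scaling 4 were higher in TE, as a further marker passed the limit toward TE. Of the TE markers, 10 were called in neither direction. The TE library held the epiblast markers NANOG, SPIC and NR5A2 at or near 0, but this did not hold for the whole epiblast list. DPPA5 was higher in TE. KLF5, ESRRB, DPPA2 and TBX3 were not called, though KLF5 passed the limit toward TE with median-ratio or trimmed-mean scaling. DPPA2 and TBX3 passed it toward IT after rescaling to the same sum.

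**Figure D2:**
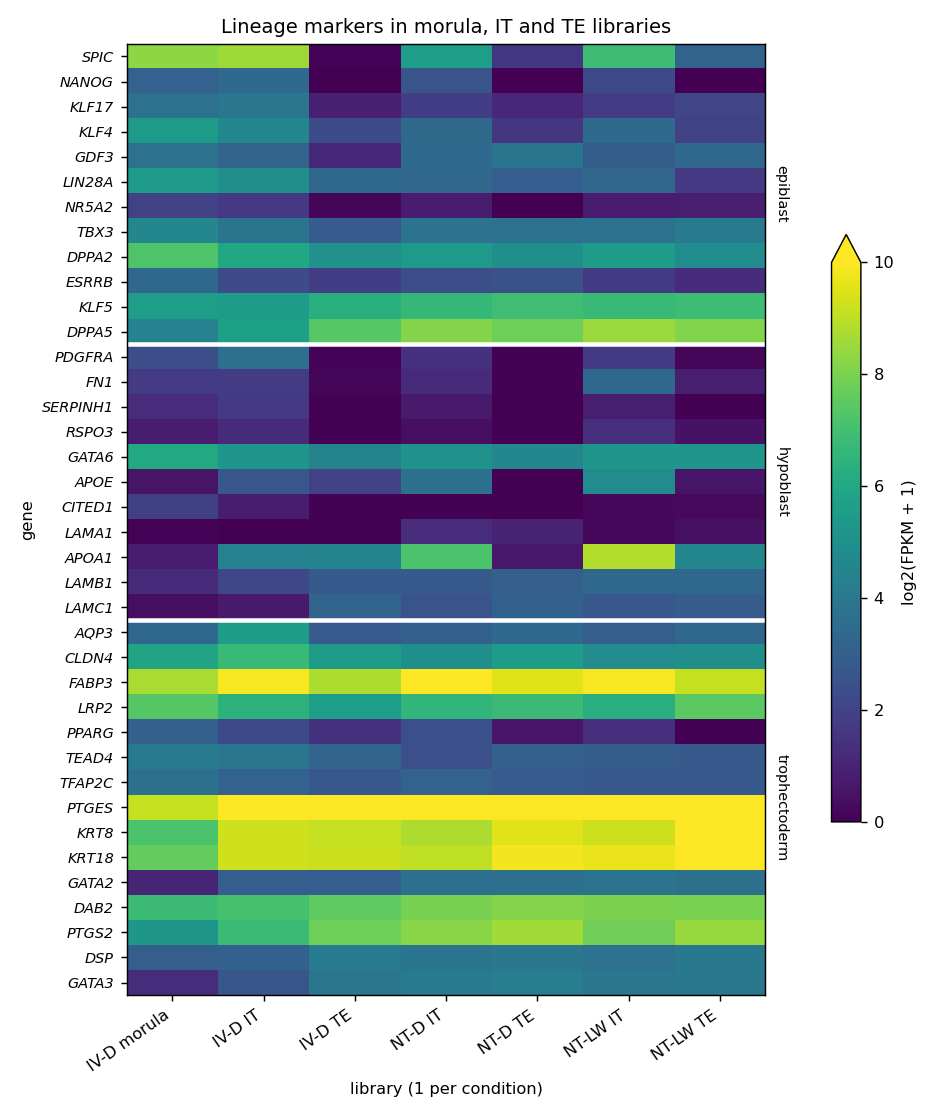
Lineage markers, some left out, with an FPKM of at least 1 in any of 7 libraries (rows), as log2 of FPKM plus 1 (colour, values over 10 in the same colour) in the morula, IT and TE libraries (columns), ordered within each group by the IV-D difference. NANOG and PDGFRA are dark in all 3 TE columns, while KRT8 and KRT18 are bright in IT and TE alike.

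The largest differences toward IT on the log2(FPKM + 1) scale were those of SULT1E1 and BAD, both of which were already high in the morula. SULT1E1, which sulfates and inactivates estrogens (chromosome 8, 66811536 to 66838181), had an FPKM of 699 in IT and 0.177 in TE, a ratio of 3950 (interval 2148 to 8237), and 1061 in the morula. It was at 44.3 and 1.49 in IT and TE of NT-D and at 69.3 and 8.23 in NT-LW. BAD, annotated as the cell death regulator of the BCL2 family (chromosome 2, 7831192 to 7842864), was at 1479 in IT, 1.60 in TE and 985 in the morula. A long non-coding RNA on the other strand lies within BAD, and the cDNA kit does not mark strand, so fragments of both cannot be told apart. For SULT1E1 and BAD the IT level of either clone group stayed below that of IV-D IT but above that of the TE of the same group.

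Transcription factors of mesoderm, head organizer and epithelial to mesenchymal transition were higher in IT. Of 10 tested in that list, 9 were higher in IT and 0 were higher in TE, with a median difference of 3.59. OTX2, a homeobox factor of the anterior epiblast, was at 56.0 in IT and 0.162 in TE, and at 9.56 and 0.797 in NT-D and 25.3 and 0.876 in NT-LW. GSC, the organizer gene goosecoid, was at 39.4 in IT with no fragment in TE, at least 225-fold higher, and it also had no fragment in NT-D TE. RUNX1T1, a transcriptional corepressor, was at 29.1 and 0.0445. For these factors IT lay above TE in all 3 embryo groups.

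OSR2 (odd-skipped related, 15.3 in IT and 0.0363 in TE) did not follow that order in the clones, where it was at 0 and 0.0348 in NT-D and at 0.0757 and 1.05 in NT-LW. SNAI1, a repressor of E-cadherin, was at 23.1 and 0.814, with 6.39 and 4.23 in NT-D. DLX5, a distal-less homeobox factor, was at 15.4 and 0.50, with 1.68 in IT and 1.82 in TE of NT-LW. The study names BATF3, BCL3, DLX5, GSC, KLF17, OSR2, RUNX1T1, SNAI1 and ZFP36L2 as factors of the ICM from these same IV-D libraries, so their direction in IV-D is no independent evidence. In the cloned libraries, which were not used to choose them, ZFP36L2 was at 3.82 and 0.329 in NT-D and at 3.77 and 1.01 in NT-LW.

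Most of the immediate early and cytokine response genes tested were higher in IT. Of 20 immediate early genes tested, 13 were higher in IT and 1 was higher in TE (median 2.26). The shares over all genes tested were 18% and 9.83% (median 0.19). BATF3 and ZFP36L2 of this list had been chosen by the study from these same IV-D libraries. FOS, a subunit of the AP-1 factor, was at 68.8 in IT and 1.99 in TE, a ratio of 34.7 (interval 27.8 to 43.8). DUSP1, a phosphatase that turns off MAP kinases, was at 89.8 and 3.89, GADD45G, a growth arrest gene, at 64.9 and 2.56, and BATF3, an AP-1 family factor, at 16.1 and 0.0467. The IT value of FOS in the clones was 3.24 and 2.57, far below that of IV-D IT, and that of the morula was 23.1.

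Of 20 genes of the cytokine and JAK-STAT pathway, 12 were higher in IT and 3 were higher in TE (median 1.51). With a minimum FPKM of 5 these counts were 6 and 3. The shares over all genes tested were 18% and 9.83% (median 0.19). BCL3 of this list had been chosen by the study from these same IV-D libraries. SOCS1, an inhibitor of JAK kinases, was at 57.1 in IT and 0.0804 in TE, where it had 1 fragment, so its ratio of 710 has a wide interval (127 to 28070). SOCS1 did not differ in this way in the clones, with 2.5 and 2.77 in IT and TE of NT-D and 1.79 and 1.16 in NT-LW. BCL3, a nuclear partner of NF-kappa-B, was at 15.8 and 0.699, IRF1, an interferon regulatory factor, at 5.95 and 0.278, and STAT2 at 7.45 and 0.889. The 3 members higher in TE included IL6 and KITLG, the ligand of the KIT receptor, which was at 1.01 in IT and 6.26 in TE.

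Developmental ligand pathways had calls in both directions. In the NODAL, BMP and TGF-beta list 5 of 21 were higher in IT and 2 higher in TE (median 0.11), close to the shares of 18% and 9.83% over all genes tested. The antagonists BAMBI (16 in IT, 0.323 in TE), FST (follistatin, 52.4 and 7.16) and SMAD6 (4.67 and 0) and the BMP target ID2 (15.6 and 2.08) were on the IT side. FST was above TE in the IT libraries of NT-D (25.4 and 10.6) and NT-LW (33.0 and 7.54) as well. In the WNT list 5 of 14 were higher in IT and 4 higher in TE (median 0.24), shares above those over all genes in both directions, and 2 and 2 with a minimum FPKM of 5. PORCN, which acylates WNT ligands for secretion, was at 23.5 in IT and 0.0674 in TE, the receptor FZD3 at 11.7 and 0.716 and the feedback inhibitor AXIN2 at 4.23 and 0.326, while the ligand WNT6 was higher in TE (0.917 and 11).

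In the FGF and MAPK list 1 of 20 was higher in IT and 2 were higher in TE (median -0.37). The receptor FGFR4 was at 4.85 in IT and 0 in TE, and the kinase MAP2K1 was at 2.54 in IT and 18.8 in TE. In the Hippo list 3 of 20 were higher in IT and 4 higher in TE (median -0.46), beside 18% and 9.83% of all genes tested. The coactivator WWTR1 (TAZ) was at 44.6 and 3.39 and its target CCN2 at 11.9 and 0.175, both on the IT side. ANKRD1, also known as a target of this pathway, was on the TE side (0.198 and 3.85), as was FRMD6 (1.27 and 6.62).

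Most cell cycle genes tested were higher in IT. Of 25 cell cycle genes tested, 15 were higher in IT and 1 was higher in TE (median 1.15). With median-ratio or trimmed-mean scaling these counts were 12 and 2. For this list and the lists below, the shares over all genes tested were 18% and 9.83% (median 0.19). The cell cycle list had a summed FPKM of 1411 in the morula, 1010 in IT and 457 in TE, against 358 to 536 in the cloned libraries. The D-type cyclin CCND3 was at 10.7 in IT and 0.881 in TE, the cyclin CCNE1 at 13.2 and 1.37, and the replication helicase subunits MCM5 and MCM7 at 16.6 and 3.20 and at 35.8 and 8.74. The 1 member higher in TE without such scaling was CDKN1A, the inhibitor p21 (3.70 in IT and 15 in TE). In NT-D 1 member was higher in IT and 3 in TE, and in NT-LW 1 and 0. Of 10 DNA methylation enzymes and histone variants, 5 were higher in IT and 0 higher in TE (median 0.86), and 4 and 1 with trimmed-mean scaling. The calls included the maintenance methyltransferase DNMT1 (13.0 and 4.22), the only DNA methylation enzyme among them, and the oocyte linker histone H1-8 (11.4 and 0.245). Of 10 imprinted and placental genes, 6 were higher in IT and 1 higher in TE (median 1.37), with SGCE at 15.7 and 0.135 and the growth inhibitor CDKN1C at 24.8 and 6.08.

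Genes of amino acid and redox metabolism were among the largest differences toward TE. ASNS, which makes asparagine (chromosome 9, 77318341 to 77336290), was at 7.6 in IT and 664 in TE, a ratio of TE to IT of 87.4. It was at 4.76 in the morula and at 435 to 627 in the 4 cloned libraries. NUPR1, a stress-induced nuclear protein, was at 21.5 and 1042, and MGST1, a membrane glutathione transferase, at 22.1 and 980. In the 4 cloned libraries NUPR1 ranged from 570 to 1877 and MGST1 from 193 to 724. UCHL1, a deubiquitinating enzyme, was at 2.03 and 215 in IV-D but between 4.25 and 16.4 in the clones.

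Across all genes tested, 9.83% were higher in TE and 18% higher in IT. Of 12 genes for the synthesis of serine, asparagine and one-carbon units, 8 were higher in TE and 0 were higher in IT (median -1.23). This list and those of aminoacyl-tRNA synthetases and of cystine uptake and glutathione were written after the values had been seen, so their counts describe the data and support nothing. The serine pathway enzymes PSAT1 (0.548 in IT, 56.4 in TE) and PSPH (3.95 and 155) and the proline enzyme PYCR1 (0.768 and 10.2) were all on the TE side. The 12 genes together had a summed FPKM of 187 in IT, 151 in the morula and 1201 in TE, against 876 to 1202 in the 4 cloned libraries, where 0 of 12 were called in either direction in NT-D and in NT-LW. The sum in TE of IV-D lay within the range of the cloned libraries of both parts, and the low libraries were IV-D morula and IT.

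Of 25 genes for cystine uptake, glutathione and the NRF2 response, 13 were higher in TE and 1 was higher in IT (median -1.07). The shares over all genes tested were 9.83% and 18%. The cystine transporter SLC7A11 was at 0.219 in IT and 35.4 in TE, a ratio of 161, and at 15.9 to 27.4 in the cloned libraries. FGF21, a hormone of the fasting and amino acid response, was at 0.114 and 25.3, with no more than 2.40 in the clones. Of 18 cytosolic aminoacyl-tRNA synthetases, 6 were higher in TE and 4 higher in IT (median -0.45). SARS1 (28.8 and 305) and GARS1 (7.0 and 73.0), which charge serine and glycine tRNA, differed the most, and HARS1 (25.7 and 6.47) went the other way.

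The proximal promoters of SLC7A11, FGF21 and CHAC1, a glutathione-degrading enzyme that was at 1.48 in IT and 15.5 in TE, hold the composite element TGATGNAA at which factors of the ATF4 and C/EBP families bind. SULT1E1, whose difference ran toward IT, holds it too and is shown for that reason, as do KLF17 and GADD45G. Each run gives the 250 bases upstream of the gene's start in the RefSeq annotation of Sscrofa11.1, read from the genome 5′ to 3′ on the strand of the gene, with matches on either strand in capitals.
SLC7A11, chr8:88607833-88608082, + strand: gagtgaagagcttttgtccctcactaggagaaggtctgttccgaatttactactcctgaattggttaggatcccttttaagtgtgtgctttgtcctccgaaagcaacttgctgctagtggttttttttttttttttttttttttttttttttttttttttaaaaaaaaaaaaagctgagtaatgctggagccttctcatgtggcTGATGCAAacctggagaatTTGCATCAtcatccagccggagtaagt
FGF21, chr6:54082403-54082652, + strand: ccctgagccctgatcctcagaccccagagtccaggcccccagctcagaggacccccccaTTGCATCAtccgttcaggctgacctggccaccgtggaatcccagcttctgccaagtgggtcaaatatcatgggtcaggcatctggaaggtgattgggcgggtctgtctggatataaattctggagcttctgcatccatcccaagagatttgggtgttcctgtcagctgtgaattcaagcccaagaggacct
CHAC1, chr1:130363333-130363582, - strand: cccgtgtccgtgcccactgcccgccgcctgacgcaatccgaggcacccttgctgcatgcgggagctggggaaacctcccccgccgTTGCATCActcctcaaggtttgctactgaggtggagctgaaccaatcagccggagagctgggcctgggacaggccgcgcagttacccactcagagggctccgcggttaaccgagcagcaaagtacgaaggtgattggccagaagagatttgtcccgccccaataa
SULT1E1, chr8:66838182-66838431, - strand: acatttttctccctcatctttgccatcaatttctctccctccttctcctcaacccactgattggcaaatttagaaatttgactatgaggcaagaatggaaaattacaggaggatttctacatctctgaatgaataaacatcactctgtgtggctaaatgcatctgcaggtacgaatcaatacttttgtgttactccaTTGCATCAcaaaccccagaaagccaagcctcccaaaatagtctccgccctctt
In SLC7A11 the matches begin 46 and 27 bases before the start. They begin 191 bases before it in FGF21, 165 in CHAC1 and 53 in SULT1E1. The element was chosen after the values were seen. It is found in 2.81% of 19568 promoters of protein-coding genes, read from 250 bases before to 50 after the start, and in these 4 promoters it overlaps another motif searched only in SLC7A11, with the octamer ATGCAAAT. A match is a description of the letters and no sign that a factor was bound. The 250 bases upstream of ASNS hold no match to these letters.

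ANKRD1, the Hippo pathway gene on the TE side, holds the TEAD element GGAATG at 199 and 108 bases before its start, and is shown because its level ran against that of CCN2 and WWTR1.
ANKRD1, chr14:102612858-102613107, - strand: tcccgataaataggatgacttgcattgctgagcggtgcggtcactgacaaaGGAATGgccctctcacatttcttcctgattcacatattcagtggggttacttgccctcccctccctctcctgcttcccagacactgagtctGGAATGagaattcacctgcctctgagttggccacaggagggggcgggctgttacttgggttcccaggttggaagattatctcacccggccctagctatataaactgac
GGAATG occurs in 11.8% of all promoters. Promoters were found for 557 of 726 called genes with an FPKM of at least 10 in IT and 374 of 475 in TE, which is 76.7% and 78.7%, so a comparison of motif shares between these gene sets is void and none is given. Positions were matched by gene symbol, and most unmatched genes had none. The other motifs searched on both strands were AP-1 (TGANTCA, held by 6.08% of all promoters), that of GATA factors (written AGATAA, held by 9.18%), AP-2 (GCCNNNGGC, held by 26.2%), the octamer (held by 1.39%) and KLF (CCACACCC, held by 3.2%).

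**Figure D3:**
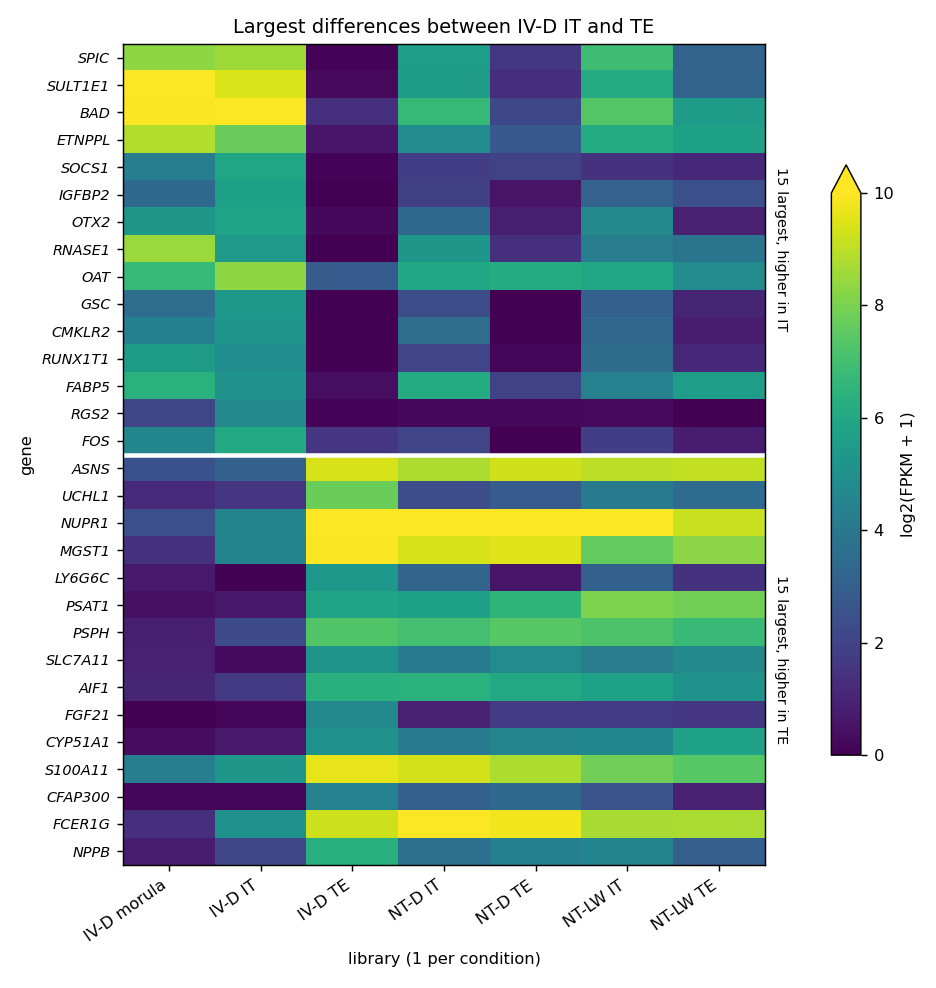
The 15 largest differences in each direction between IV-D IT and TE (rows), as log2 of FPKM plus 1 (colour, values over 10 in the same colour) in 7 libraries (columns). Most genes of the upper block, such as SULT1E1 and BAD, are brighter in the IV-D morula and IT than in the cloned IT libraries, and most genes of the lower block, such as ASNS, NUPR1 and PSPH, are dark in the IV-D morula and bright in the 4 cloned libraries.

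The sterol, glycolysis and folding stress lists had more calls toward TE than toward IT, but only the sterol list had a negative median. Over all genes tested, 18% were higher in IT and 9.83% higher in TE. Of 21 genes of sterol and fatty acid synthesis, 10 were higher in TE and 3 higher in IT (median -0.90). The sterol enzymes CYP51A1 (0.668 in IT, 34.1 in TE) and SQLE (11.3 and 75.1) were higher in TE. FABP5, a fatty acid carrier, went toward IT (33.9 and 0.279). In NT-LW 5 of 21 were higher in TE and 0 in IT, and in NT-D 0 in TE and 1 in IT. Of 18 genes of glycolysis and lactate, 7 were higher in TE and 4 higher in IT (median 0.27), with the transporter SLC2A8 (2.07 and 10.2), the hypoxia factor HIF1A (3.74 and 13.6) and GPI (31.4 and 92.2) toward TE and the pyruvate kinase PKM (17.3 and 5.22) toward IT.

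Of 22 heat shock and folding stress genes, 8 were higher in TE and 4 higher in IT (median 0.07). The cytosolic chaperone genes DNAJB1 (288 and 25.6) and BAG3 (44.3 and 7.33) were higher in IT, whereas ASNS and CHAC1, which stand in this list as targets of the integrated stress response, were higher in TE. GAPDH was at 126 in IT and 255 in TE and was higher in TE of NT-D (316 and 538) and NT-LW (330 and 590) too. Its difference was below 1 when each library was rescaled to the same sum.

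Epithelial genes were divided between the parts. Of 24 junction genes, 5 were higher in IT and 7 higher in TE (median 0.10), an order that rescaling to the same sum turned to 5 and 4. Over all genes tested, 18% were higher in IT and 9.83% higher in TE. CLDN1, a claudin (9.06 in IT, 0.548 in TE), KRT10, a keratin (18.2 and 4.05), and ELF3, an epithelial ETS factor (11 and 2.40), were on the IT side, and TJP3, a tight junction scaffold (1.61 and 8.50), on the TE side. Of 9 ion and water transport genes, 5 were higher in IT and 2 higher in TE (median 1.0), and 3 and 0 with a minimum FPKM of 5, with carbonic anhydrase CA2 at 19.6 and 0.423, the pump regulator FXYD3 at 5.27 and 0.448 and the sodium channel subunit SCNN1A at 0.381 and 3.90. Of 12 genes of steroid and prostaglandin synthesis, 4 were higher in IT and 1 higher in TE (median 0.25). The electron carrier FDX1 was at 8.18 in IT and 39.1 in TE, and the prostaglandin synthases PTGES (1322 and 1042) and PTGS2 (113 and 218) were not called.

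Of 15 cell death genes, 3 were higher in IT and 2 higher in TE (median 0.21), near the shares of 18% and 9.83% and the median of 0.19 over all genes, and 2 and 2 with median-ratio or trimmed-mean scaling. CASP8, an initiator caspase, was at 0.0105 in IT and 4.95 in TE, and no more than 0.617 in the clones. PMAIP1 (NOXA), which promotes apoptosis, was at 30.9 and 5.16. MDM2, the inhibitor of p53, was at 12.8 and 46.8.

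Few markers of other cells that a flushed embryo could carry were among the genes of the table. Fibroblast markers had 7 members in the table, with a summed FPKM of 0.368 in IT and 0.233 in TE, and none reached 1 in either, the collagens COL1A1, COL1A2 and COL3A1 included. Of the blood list, HBB was at 1.80 in IT and 0.0751 in TE, and it was higher in IT of NT-D (10.9 and 0) and NT-LW (21.3 and 2.29). The uterine epithelium list had 2 members in the table, and MSX1, which is also expressed in mesoderm, was at 3.62 and 0.0176. Of 2 cumulus and granulosa genes tested, KITLG was higher in TE and VCAN was near equal (13.6 and 15.3). Across all genes tested, 18% were higher in IT and 9.83% higher in TE. Of 11 oocyte transcripts, 6 were higher in IT and 2 higher in TE (median 1.05), and 2 and 2 with a minimum FPKM of 5. BTG4, an mRNA decay adaptor of the oocyte, was at 8.06 and 0.225. The 2 higher in TE were UCHL1 and FCER1G, a receptor subunit known from immune cells (33.0 and 601), and these carried most of the list's summed FPKM in TE (821, against 71.3 in IT). In the cloned libraries FCER1G ranged from 417 to 1049. AIF1, a gene known from macrophages that overlaps other annotated genes, was at 2.26 in IT and 81.2 in TE and at 33.7 to 83.5 in the cloned libraries. The part of other cell types in the IT and TE difference was not tested.

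**Figure D4:**
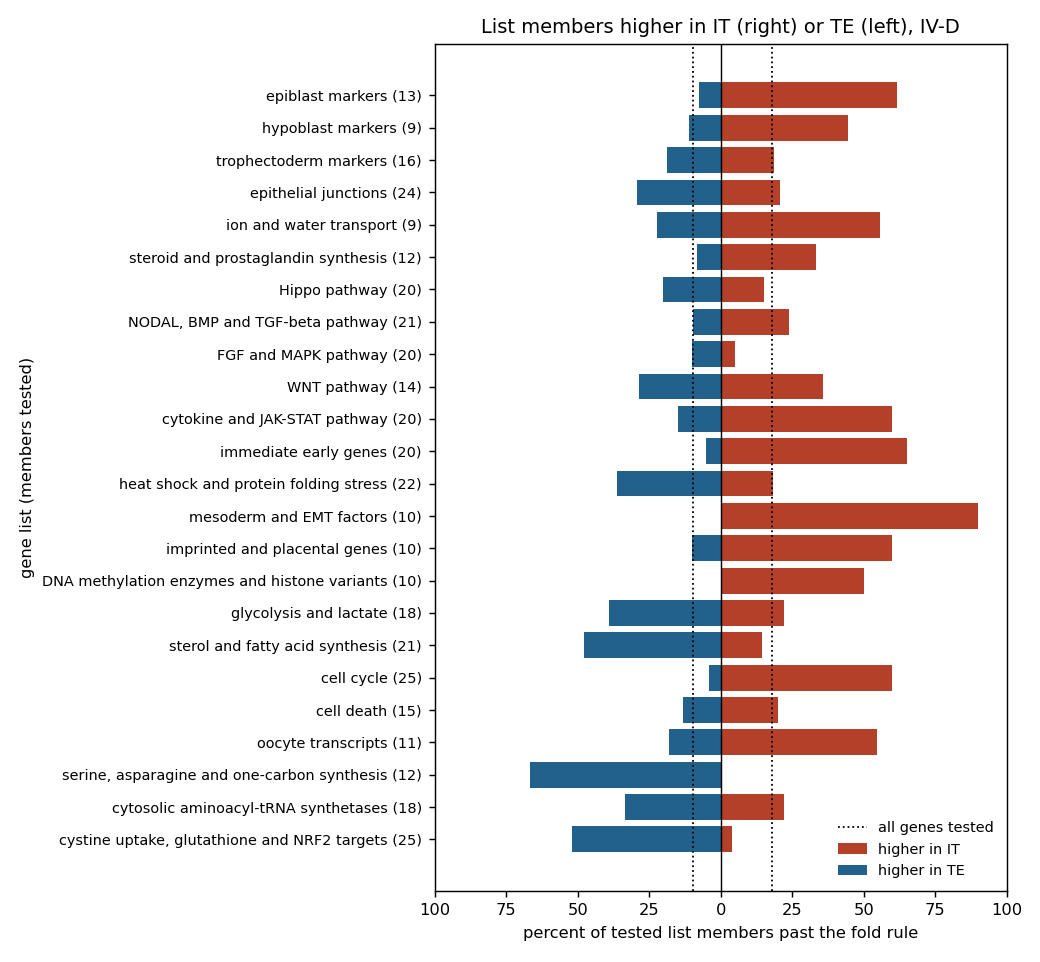
Percent of the tested members of each gene list that were higher in IT (bars to the right) or in TE (bars to the left) of IV-D, with the number tested in brackets. Dotted lines mark the shares over all genes tested, 18% and 9.83%. The list of mesoderm and EMT factors reaches farthest to the right and that of serine, asparagine and one-carbon synthesis, written after the values were seen, farthest to the left.

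The most exclusive genes were counted with the limits that the study set for ICM transcripts. An FPKM over 10 in one part and under 1 in the other was found for 1.03% of the genes tested. It was met toward IT by 51 genes, 0.719%, 42 of them with a symbol. The reverse was met by 22 genes, 0.31%, of which 16 had a symbol. The IT-restricted genes included CMKLR2, a chemerin receptor (36.3 and 0), IGFBP2, an IGF binding protein (49.4 and 0), RNASE1, a secreted ribonuclease (41.2 and 0), and RGS2, a regulator of G proteins (25.4 and 0.0737). Their median FPKM was 17.8 in IT, 12.7 in the morula and 0.245 in TE. In the clones, which the limits did not use, it was 2.73 in IT and 0.411 in TE of NT-D and 3.77 and 1.04 in NT-LW. IT lay above TE for 47 of the 51 genes in NT-D and for 39 in NT-LW, beside 54.5% and 71.2% of all genes tested. The 22 TE-restricted genes had a median of 19.8 in TE, 0.553 in IT and 0.272 in the morula, and IT lay above TE for 5 of them in NT-D and 12 in NT-LW.

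**Figure D5:**
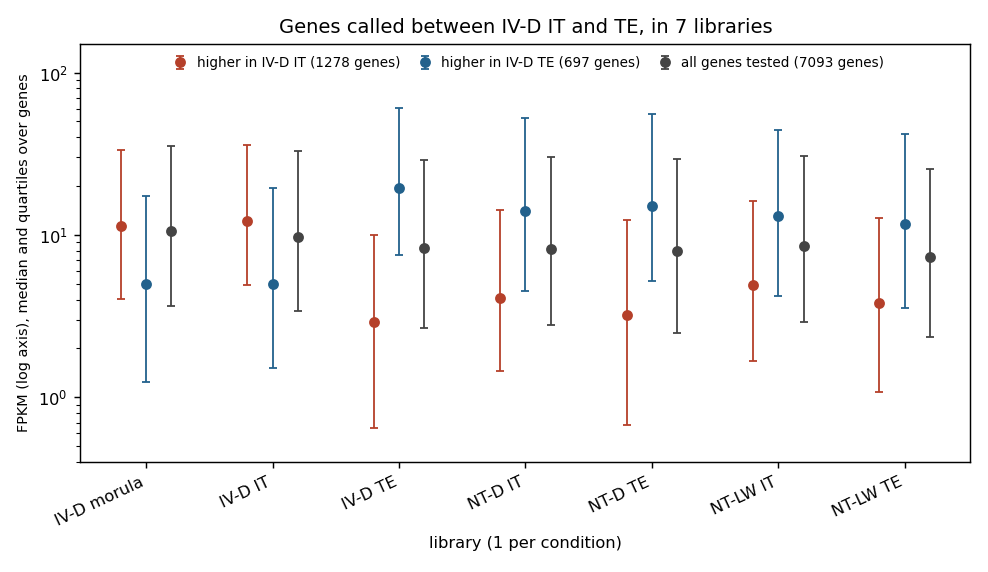
Median FPKM (points, log axis) with the lower and upper quartile over genes (bars) in 7 libraries, for the genes higher in IV-D IT, higher in IV-D TE and all genes tested. Genes higher in IT have medians of 11.3 in the morula and 12.2 in IT but 2.91 in TE and 3.21 to 4.91 in the clones, and genes higher in TE have 5.02 and 4.98 in morula and IT, 19.5 in TE and 11.7 to 15.2 in the clones.

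The cloned blastocysts gave pairs of IT and TE libraries that the IV-D comparison had not used. The same rule called 292 genes toward IT and 26 toward TE in NT-D (4.32% and 0.385% of 6757, 4.71% in all) and 345 and 80 in NT-LW (5.07% and 1.18% of 6801, 6.25% in all). The 1278 genes higher in IT of IV-D had a median FPKM of 4.09 in IT and 3.21 in TE of NT-D, and 4.91 and 3.82 in NT-LW. IT lay above TE in both clone groups for 50.9% of these genes and for 42.2% of all genes tested. The 697 genes higher in TE of IV-D had medians of 14.0 and 15.2 in NT-D and 13.1 and 11.7 in NT-LW. TE lay above IT in both clone groups for 27.8% of them and for 16.4% of all genes tested. The opposite order, IT above TE in both clone groups, was found for 26.8% of the 697 genes and 42.2% of all genes tested.

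Past the fold rule toward IT in all 3 groups were 60 genes, and toward TE 1 gene, the skeletal actin ACTA1. ACTA1 was at 3.91 in IT and 22.5 in TE of IV-D, at 16.4 and 55.0 in NT-D and at 4.52 and 14.8 in NT-LW. Besides SPIC, SULT1E1, OTX2, GSC, NANOG and PDGFRA, the genes toward IT included RND3, a small GTPase that lowers actin contractility (105 and 17.6 in IV-D, 36.8 and 4.99 in NT-D, 20.5 and 1.72 in NT-LW). CTSC, a lysosomal protease, was at 51.0 and 6.55, at 16 and 0.867 and at 21.4 and 3.61 in the same order. FAM111A, a protease of replicating cells, was at 21.7 and 1.09, at 5.68 and 0.137 and at 9.22 and 1.33. Of the genes higher in TE, TINAGL1, a basement membrane protein, was at 0.475 and 11.5 in IV-D, at 3.23 and 6.99 in NT-D and at 3.26 and 7.84 in NT-LW. These genes were picked because the order of the parts was the same in the 3 groups, so that order is no independent evidence.

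A single test over the 3 groups used the spread between their differences. With limma on log2 of FPKM plus 1, embryo group as a block and Benjamini-Hochberg adjustment over 7280 genes, 0 genes were called in either direction, 0% of those tested, and the smallest adjusted p was 0.164. In simulated data this test called 0% of genes changed by 1 on the log2 scale and 72% of those changed by 3. The lack of calls is therefore no sign that the parts were alike. At an unadjusted p under 0.05 there were 555 genes higher in IT and 97 higher in TE. NANOG differed by 2.76 ± 0.31 (SE, 3 pairs) with an adjusted p of 0.164. Without the IV-D pair, the NT-D and NT-LW pairs gave 211 calls toward IT and 24 toward TE, and without the NT-LW pair there were 16 and 0. The embryo groups differ in origin, breed and culture, so the spread in this test is not that between embryos of a kind.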

How the data were processed

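Oocytes and embryos were lysed and cDNA was made with the SMART-Seq v4 kit and sequenced with paired-end reads of 150 bp. The authors aligned reads with HISAT2 2.0.4 to Sscrofa11.1, counted them with HTSeq 0.9.1 and deposited FPKM values, 1 library per column, and the submitters' processing notes also name DESeq. By its name the deposited table holds differentially expressed genes, and how its genes were selected is not given in the sources used here, so each count is one within the table. Whether the counting used strand is not given either.

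Samples were grouped by their GEO labels. IT and TE of IV-D were compared as log2(FPKM + 1) with a pseudocount of 1, and a difference over 1 with an FPKM of at least 1 in the higher library was called. This is a limit of size, with no p-value. Whole fragments were recovered from the steps of the FPKM values, which gave depths of 14952784 to 22991067 over all libraries and exact binomial 95% intervals of ratios. A library with 0 fragments was set to a floor of 3. Reads carry no molecular identifiers, so intervals and floors cover counting error only. The 3 pairs of IT and TE libraries were tested with limma 3.58.1 (R 4.3.3) at an adjusted p of 0.05. Python 3.11.15 with pandas 2.3.3, numpy 2.4.6, scipy 1.17.1 and matplotlib 3.10.9 was used for the rest. The scripts were tested on simulated data.

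The comparison, the 25 gene lists and the rule for named genes were chosen with earlier results of these data known, and 3 lists and the TGATGNAA element were added after the values had been seen. Named were the lineage markers, the 15 largest differences in each direction with an FPKM of at least 10, the 8 in each direction that held best over the 3 embryo groups, up to 4 members of every other list, the 5 most abundant genes of each part and the factors the study names for these parts. CDKN1A, IL6, APOC3 and the 3 collagens were named after their values were seen. Alternatives were other scalings, pseudocounts, limits and leaving out each pair. Some named genes are not reported here.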

Additional observations from a re-analysis of the deposited data

Results flagged for a closer look

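The difference between the parts ran in opposite directions in the embryo groups for 4 genes, which passed the fold rule toward TE in IV-D and toward IT in both NT-D and NT-LW. LY6G6C, a surface protein of the LY6 family, had an FPKM of 0.0492 in IT and 39.2 in TE of IV-D, a log2 difference of -5.26, and 8.58 and 0.490 in NT-D and 7.66 and 1.76 in NT-LW. APOC3, an apolipoprotein, was the other one with a symbol beside 2 genes without one, with log2 differences of -3.27 in IV-D, 5.61 in NT-D and 5.46 in NT-LW. No gene went the reverse way. With 1 library for each part and group, this difference between embryo groups was not tested.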

How the results depend on the processing

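No paired analysis was possible because IV-D alone gives a single pair of IT and TE libraries. In the limma test over the 3 embryo groups, which paired the parts by using the group as a block, the count stayed at 0 without that block, and leaving out each pair in turn gave 0 to 211 genes higher in IT and 0 to 24 higher in TE. The highest values came without the IV-D pair, which leaves the cloned groups alone, and the cause was not tested. A difference over 2 was met by 301 genes higher in IT and 162 higher in TE. FPKM limits of 5 and 1 gave 120 IT-restricted and 44 TE-restricted genes. The Spearman correlation was 0.896 for IT and TE, 0.946 for IT and morula and 0.861 for TE and morula. Of the called genes, 1271 higher in IT and 695 higher in TE also passed an exact binomial test of their fragments (adjusted p limit 0.005), which compares these libraries and covers counting error only. A minimum FPKM of 5 lowered 17 counts of list members by over 1.5 times, as fewer genes were called. No called difference changed direction, but APOA1, GATA2, KRT8, KRT18, ATP6 and UBB, all under the limit, changed sign under at least 1 scaling, GATA2 from 0.02 to -0.18 with the trimmed mean. Of 164 named genes, 128 were past the fold rule. The same side of the limit was kept by 158 with median-ratio scaling, 158 with trimmed-mean scaling, 160 after rescaling to an equal sum and 161 with a pseudocount of 0.1. Calls were lost for FABP3 (0.97 and 0.91 with the first scalings) and GAPDH (-0.93 after rescaling). With 1 library a side, a ratio that rests on few fragments, such as those of SPIC and SOCS1, is limited by depth.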
